A study of Mus musculus with 8 samples.

Results

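The transcripts described here are those of 60 genes of cell division: the cyclins, kinases and phosphatases of mitotic entry, the spindle checkpoint, the kinetochore, the mitotic motors, the condensins, and the machinery of anaphase and cytokinesis. They were chosen by name, with earlier results of these data known. Every probe set annotated to exactly 1 of them was taken. Of the 60 genes 59 had such a probe set, 135 probe sets in all, and 128 of these, covering all 59 genes, passed the filter on low values, which removed probe sets whose log2 intensity reached 4 on fewer than 4 of the 8 arrays. Ccnb1 was not analysed here. The filter kept 41409 of 45037 probe sets and 17363 named genes over the whole series.

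Total RNA came from 2 mouse cell lines, SThdh7/7 and SThdh111/111, with 4 samples of each, and was measured on Affymetrix mouse genome arrays. Lines of these names are striatal cells of embryonic Huntingtin (Htt) knock-in mice, homozygous for a short (SThdh7/7) or an expanded (SThdh111/111) polyglutamine allele, and conditionally immortalised with a temperature-sensitive viral large T antigen, which both lines share. The expanded line is used as a model of Huntington's disease. Each group is a single line, so the Htt allele and any other difference between the lines cannot be told apart. The labels give the line and a sample number and do not say whether the samples were separate cultures, so the p-values rest on a spread between samples that may be technical.

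Cells that divide make most of these transcripts late in each cycle. CDK1 with its cyclins starts mitosis, kinetochores tie chromosomes to spindle microtubules, the spindle checkpoint holds the anaphase-promoting complex until all chromosomes are attached, and that complex then has securin and cyclins destroyed so that chromosomes part and the cell cleaves. In resting cells the genes are held silent by the DREAM complex, and in dividing cells B-MYB and FOXM1 activate them. Both work through the MuvB core, which binds the CHR element (cell cycle genes homology region), while the factor NF-Y binds nearby CCAAT boxes. RNA from a whole culture cannot tell fewer dividing cells from less of a transcript in each dividing cell.

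Because these 2 motifs are the known control elements of mitotic genes, the 120 bases before the start are shown for 5 genes that were lower in SThdh111/111 and, last, for Bub3, which was not called different. Capitals mark the CCAAT box, which reads ATTGG on the other strand, and the CHR element. The CHR element was searched as TTTGAA, which reads TTCAAA on the other strand, and as TTTAAA, which is its own reverse complement. The sequences are RefSeq's.
Cdk1 (GRCm38.p6, chr10:69352913-69353032, strand -): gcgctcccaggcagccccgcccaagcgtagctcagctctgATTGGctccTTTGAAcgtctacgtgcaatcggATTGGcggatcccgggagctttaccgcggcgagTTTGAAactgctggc
Ube2c (GRCm38.p6, chr2:164769809-164769928, strand +): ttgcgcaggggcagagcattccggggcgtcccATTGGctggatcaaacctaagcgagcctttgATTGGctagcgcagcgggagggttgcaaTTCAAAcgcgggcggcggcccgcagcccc
Top2a (GRCm38.p6, chr11:99024190-99024309, strand -): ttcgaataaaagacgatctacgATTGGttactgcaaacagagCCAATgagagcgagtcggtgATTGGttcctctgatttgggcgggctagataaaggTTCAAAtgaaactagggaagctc
Cdc20 (GRCm38.p6, chr4:118437344-118437463, strand -): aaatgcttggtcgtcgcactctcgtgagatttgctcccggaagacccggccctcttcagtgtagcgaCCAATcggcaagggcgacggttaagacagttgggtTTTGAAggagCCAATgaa
Prc1 (GRCm38.p6, chr7:80294356-80294475, strand +): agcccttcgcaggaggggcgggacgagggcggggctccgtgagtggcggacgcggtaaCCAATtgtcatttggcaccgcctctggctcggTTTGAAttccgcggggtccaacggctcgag
Bub3 (GRCm38.p6, chr7:131560250-131560369, strand +): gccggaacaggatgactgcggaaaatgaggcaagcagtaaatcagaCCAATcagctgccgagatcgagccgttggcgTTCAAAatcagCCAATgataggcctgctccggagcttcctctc
In the 6 promoters a CHR element stands beside 1 or more CCAAT boxes, Bub3 included. These 6 are examples that hold both motifs and do not stand for all the genes. In Anln, Birc5 and Mad2l1, which were also lower, the 120 bases before the start hold neither motif. Bub3 and Prc1 each have a second annotated start, and the 120 bases before it hold no whole CHR element in either gene. In Prc1 the TTTGAA shown above crosses that start.

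RefSeq promoter windows, from 250 bases before to 50 after the start, were found for 51 of the 60 genes. In the part from 100 bases before to 50 after the start, 35 of the 51 held a CCAAT box on either strand (68.6%), against 27.8% of 13848 named genes on the arrays with a window. A CHR element was there in 36 of the 51 (70.6%), against 10.4%, and both were there in 28 (54.9%), against 2.79%. The form TTTGAA made most of this, with 64.7% of mitotic genes and 6.29% of genes on the arrays, while TTTAAA was in 11.8% and 4.74%. Over the whole window of 300 bases, both were in 66.7% of the mitotic genes and in 9.79% of genes on the arrays. These are matches of letters and no evidence of binding. The measured genes split by these motifs as follows: 25 of 27 genes with both motifs near the start were lower, with a median log2 difference of -1.64, and 21 of 23 without the pair, with a median of -1.67.

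**Figure D1:**
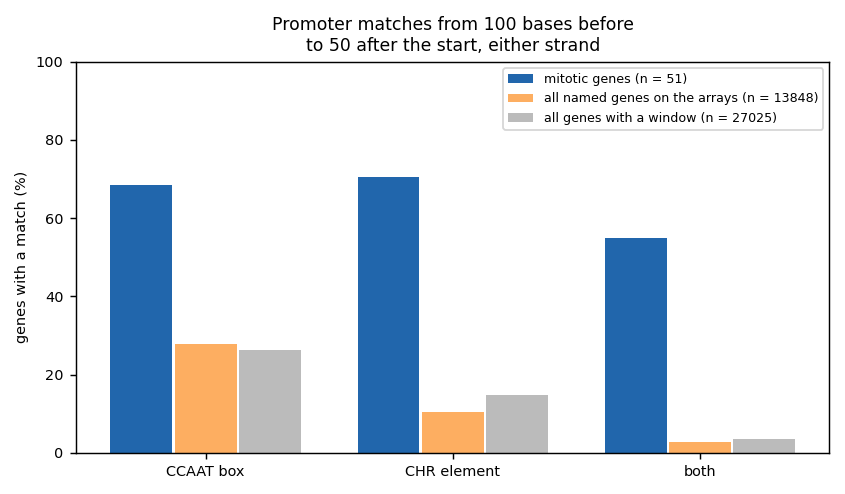
Bars give the percentage of genes with a CCAAT box, a CHR element or both from 100 bases before to 50 after the start, on either strand, for 51 mitotic genes, 13848 named genes on the arrays and 27025 genes with a RefSeq window. Both motifs were present in 54.9% of the mitotic genes and in 2.79% of the genes on the arrays.

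Mitotic transcripts were lower in SThdh111/111 across every role. Taking for each gene its brightest probe set, 53 of 59 genes fell and 0 rose (limma, adjusted p under 0.05), against 15.9% of all named genes called lower and 13.1% called higher. The median log2 difference (SThdh111/111 minus SThdh7/7) was -1.64, which is 32.0% of the SThdh7/7 level, against a median of -0.09 over all named genes. At least 2-fold falls were seen in 48 genes (81.4%, against 5.4% of all named genes), and 48 also with values under the background floor, a log2 intensity of 7.02, set to it. At least 4-fold falls were seen in 14 genes, and in 12 with values set to that floor. In 54 of the 59 genes every SThdh111/111 array lay below every SThdh7/7 array, against 17.3% of all named genes. The 59 genes lie on 17 chromosomes.

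The spread between samples was small beside these differences. The median SD of a gene over the 4 samples was 0.16 in SThdh7/7 and 0.21 in SThdh111/111. Measured from each gene's SThdh7/7 mean, the median over the 59 genes was -0.02, 0.03, 0.02 and -0.05 on the 4 SThdh7/7 arrays and -1.59, -1.67, -1.54 and -1.53 on the 4 SThdh111/111 arrays. So all 4 SThdh111/111 samples were lower by about the same amount. With each array centred on its median, the median of all named genes shifted from -0.09 to 0.06, and 50 of the 59 genes were lower, with a median of -1.50, against 8.93% of all named genes.

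Some features of the arrays as a whole bear on these values. SThdh7/7 samples 1 and 2 had higher median intensities (173.9 and 174.0) than the other 6 arrays (136.2 to 147.0), and without them 50 of the 59 genes were lower, with a median of -1.59, against 13.7% of all named genes. A floor was set from 27 bacterial control probe sets, at the 95th percentile on the array where it was highest, a log2 intensity of 7.02. Of the 59 genes 45 were above the floor on all 8 arrays, and 41 of these 45 were lower. The share of all named genes above the floor on all 8 arrays that were lower was not computed. Where the brighter mean was at least a log2 of 8, 53 of 56 mitotic genes (94.6%) and 24.9% of all named genes were lower. That choice can take in genes for being bright in 1 line. With values under the floor set to it, 50 of the 59 were lower, against 13.8% of all named genes, and the median was -1.54. Htt itself was at 9.26, 9.30, 8.96 and 8.99 (log2 intensity) in SThdh7/7 and at 8.90, 8.85, 8.81 and 8.26 in SThdh111/111, a difference of -0.42 ± 0.16 (SE; adjusted p = 0.084) at its brightest probe set. Its other 3 probe sets differed by -1.09 (adjusted p = 0.024), -0.32 (adjusted p = 0.51) and 0.20 (adjusted p = 0.81).

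Markers of cell types were read beside the mitotic genes, against the 15.9% of all named genes called lower and 13.1% called higher. Of 7 neural progenitor markers 4 were lower and 0 higher, with summed intensities of 51691 to 57473 in SThdh7/7 and 47128 to 50970 in SThdh111/111. That sum is mostly Vim, at a log2 of 15.50 in both lines, while Pax6, Hes1, Sox2 and Nes differed by -5.02, -2.12, -2.06 and -1.38. Of 8 mesenchymal markers 6 were higher and 0 lower, and their sum went from 30285 to 34802 up to 109312 to 128123. The part of either in the mitotic genes was not tested. Of 8 markers of striatal projection neurons 2 were higher and 1 lower, at sums of 2431 to 2741 and 3125 to 3428. Penk rose by 2.96 (adjusted p = 2.5e-05), from a mean log2 of 6.67, below the floor, to 9.63. Foxp1 rose by 0.29 (adjusted p = 0.022), and Rgs9 differed by -0.71 (adjusted p = 3.7e-04). Ppp1r1b and Drd1 were at or below the floor on all 8 arrays. The remaining lists held 2 of 8 pan-neuronal, 1 of 7 microglial and blood, 1 of 5 astrocyte and 1 of 5 endothelial markers that were lower, and 0, 1, 1 and 0 that were higher. In this order their sums were 2470 to 2744, 2127 to 2582, 1803 to 2382 and 543 to 1079 in SThdh7/7. In SThdh111/111 they were 1619 to 1961, 1346 to 1538, 1044 to 1266 and 576 to 642. The gene with the highest SThdh7/7 mean was Cd68 in the microglial and blood list (-1.75) and Aldh1l1 in the astrocyte list (-2.47). Tubb3 and Snap25 of neurons, Aif1, Ptprc and Itgam of microglia and blood, S100b of astrocytes, Pecam1 of endothelium and Fabp7 of neural progenitors were at or below the floor on all 8 arrays.

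**Figure D2:**
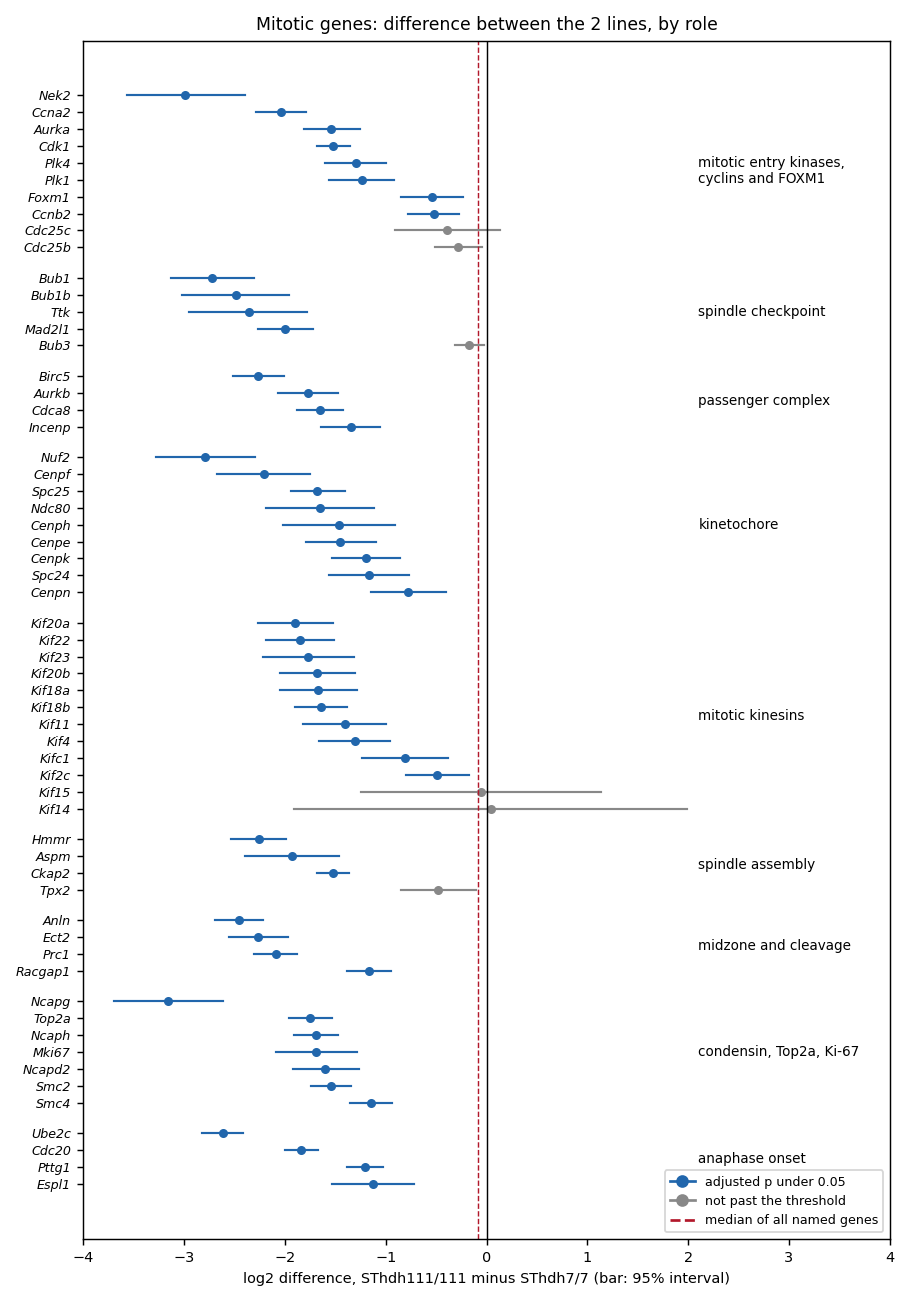
Points are the fitted log2 differences of 59 mitotic genes between 4 SThdh111/111 and 4 SThdh7/7 samples, with 95% intervals, grouped by role; blue marks an adjusted p under 0.05. The 53 blue genes all lie below 0, and the dashed line is the median of all named genes, -0.09.

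Genes of mitotic entry fell in 8 of 10 cases (median -1.27). Cdk1, the kinase that drives mitosis, was at 11.59, 11.73, 11.66 and 11.49 (log2 intensity) in the 4 SThdh7/7 samples and at 10.07, 10.11, 10.07 and 10.13 in the 4 SThdh111/111 samples. Its values in the 2 lines did not overlap, and it fell by 1.52 ± 0.07 on the log2 scale (SE; adjusted p = 2.6e-09), to 34.9% of its SThdh7/7 level. Nek2, a kinase that splits the centrosomes, was at 9.38, 9.46, 9.78 and 9.90 in SThdh7/7 and at 6.91, 6.90, 5.74 and 7.02 in SThdh111/111. All 4 of the latter lie at or below the floor, so it was at least 6.1-fold lower at this probe set (adjusted p = 1.8e-06). The other 2 Nek2 probe sets differed by -1.78 (adjusted p = 4.2e-05) and -0.24 (adjusted p = 0.80), and the mean over all 3 by -1.67. Cyclin A2 (Ccna2) fell to 24.3% of its SThdh7/7 level, Aurora A (Aurka), the spindle pole kinase, to 34.5%, Plk4, the kinase of centriole duplication, to 40.7% and Plk1, which acts at most steps of mitosis, to 42.4%.

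Smaller differences were measured for the activators of CDK1, cyclin B2 and FOXM1. The CDC25 phosphatases remove the inhibitory phosphates from CDK1. Cdc25b was at 9.43, 9.77, 9.45 and 9.68 in SThdh7/7 and at 9.24, 9.34, 9.29 and 9.32 in SThdh111/111. The groups did not overlap, but the difference of -0.28 ± 0.11 (SE; 95% interval -0.51 to -0.05) did not pass (adjusted p = 0.083). For Cdc25c the brighter probe set differed by -0.39 (adjusted p = 0.31) and the other, at or below the floor in all SThdh111/111 samples, was at least 1.54-fold lower (adjusted p = 0.0082). Cyclin B2 (Ccnb2) fell to 69.6% of its SThdh7/7 level (adjusted p = 0.0045), a call lost with centred arrays. Foxm1, the transcription factor of late cell cycle genes, fell to 68.9% at its brightest probe set (adjusted p = 0.014). That call was lost under 5 settings, among them centred arrays (-0.39) and the fit without SThdh7/7 samples 1 and 2 (-0.35). A dimmer Foxm1 probe set, at or below the floor in all SThdh111/111 samples, was at least 1.19-fold lower (adjusted p = 0.0020).

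In the spindle checkpoint 4 of 5 genes were lower (median -2.36, or -2.0 with values set to the floor). Bub1, a checkpoint kinase at the kinetochore, was at 9.44, 9.34, 9.79 and 9.61 in SThdh7/7 and at 6.83, 7.05, 6.98 and 6.45 in SThdh111/111. It fell by 2.72 ± 0.19 on the log2 scale (SE; adjusted p = 1.3e-07), with 1 of its 4 SThdh111/111 values above the floor, and by 2.52 with values set to the floor. The mean with a second Bub1 probe set, below the floor on all 8 arrays, differed by -1.69 (adjusted p = 0.016). Mad2l1, which encodes the checkpoint protein that holds CDC20 inactive, was at 10.72, 10.85, 10.38 and 10.64 in SThdh7/7 and at 8.66, 8.68, 8.86 and 8.40 in SThdh111/111, a fall to 25.1% (adjusted p = 5e-08). Bub1b (BubR1) fell to 17.8% of its SThdh7/7 level, and Ttk (the kinase MPS1), below the floor in all SThdh111/111 samples, was at least 2.57-fold lower.

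Bub3, the partner of BUB1 and BUBR1 in the same complexes, was the checkpoint gene not called. It was at 11.98, 12.01, 12.0 and 11.92 in SThdh7/7 and at 11.86, 11.79, 11.69 and 11.91 in SThdh111/111. All SThdh111/111 values were the lower ones, but by little: the difference was -0.17 ± 0.06 (SE; 95% interval -0.31 to -0.03; adjusted p = 0.083). It passed after quantile normalization (-0.25, adjusted p = 0.011) and with a filter at a log2 of 8 (-0.17, adjusted p = 0.043), while centred arrays gave -0.02. A second bright probe set differed by 0.09 (adjusted p = 0.60). The 95% interval of Bub3 does not reach those of Bub1 (-3.13 to -2.31) or Bub1b (-3.02 to -1.96). The differences between these genes were not themselves tested.

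All 4 genes of the chromosomal passenger complex, which corrects wrong attachments and later guides cleavage, were lower (median -1.71). Birc5 (survivin), the subunit that brings the complex to centromeres, was at 11.24, 11.10, 11.12 and 10.82 in SThdh7/7 and at 8.63, 8.64, 8.96 and 8.99 in SThdh111/111. The groups were far apart, and Birc5 fell to 20.8% of its SThdh7/7 level (adjusted p = 7e-09). Its kinase subunit gene Aurkb fell to 29.3%, Cdca8 (borealin) to 31.8% and the scaffold gene Incenp to 39.2%.

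Kinetochore genes were lower in 9 of 9 cases (median -1.46). The NDC80 complex, which grips the ends of microtubules, was lower in all 4 subunits. Nuf2 was at 9.94, 9.64, 9.46 and 9.45 in SThdh7/7 and at 6.23, 7.22, 6.74 and 7.14 in SThdh111/111, a fall of 2.79 ± 0.23 on the log2 scale (SE; adjusted p = 6.3e-07), with 2 of 4 SThdh111/111 values above the floor. Spc25 was at 9.80, 9.88, 9.93 and 10.04 in SThdh7/7 and at 8.39, 8.02, 8.34 and 8.19 in SThdh111/111, a fall to 31.3% (adjusted p = 2e-07). A dim second Spc25 probe set differed by -0.31 (adjusted p = 0.53), and the mean of both by -0.99. The dim one is the only one left when probe sets with the suffixes x, s and a in their names are dropped. Ndc80 itself, with 2 of 4 SThdh111/111 values above the floor, fell to 31.8% and Spc24 to 44.6%. Among the others, Cenpf, a large protein of the outer kinetochore, fell to 21.6% at its brightest probe set. Another Cenpf probe set, above the floor on all 8 arrays, overlapped between the lines and differed by -0.38 (adjusted p = 0.42). The motor gene Cenpe fell to 36.7%. The centromere genes Cenph, with 2 of 4 SThdh111/111 values above the floor, Cenpk and Cenpn fell to 36.2%, 43.6% and 58.4%. The Cenpk call was lost with the mean over its probe sets (-0.67, adjusted p = 0.090).

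Of 12 mitotic kinesins 10 were lower (median -1.53). Kif20a, a motor of the central spindle, was at 9.24, 9.35, 9.39 and 9.46 in SThdh7/7 and at 7.58, 7.31, 7.13 and 7.83 in SThdh111/111, a fall to 26.8% (adjusted p = 2e-06). Kif18b, which shortens astral microtubules, was at 10.78, 10.60, 10.71 and 10.50 in SThdh7/7 and at 9.22, 8.71, 9.12 and 8.99 in SThdh111/111, a fall to 32.0% (adjusted p = 1.7e-07). Kif22, a chromosome arm motor, fell to 27.7%, Kif23 of the centralspindlin complex to 29.3%, Kif20b to 31.2%, Kif18a, which dampens chromosome movements, to 31.4%, Kif11 (Eg5), which pushes spindle poles apart, to 37.5%, and the chromokinesin gene Kif4 to 40.4%.

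The other 4 kinesins had smaller measured differences. Kifc1, a minus-end motor, fell to 57.1% (adjusted p = 0.0090), a call lost without SThdh7/7 samples 1 and 2 (-0.73, adjusted p = 0.086), with values under the floor set to it and with no intensity trend. Kif2c (MCAK), a microtubule depolymerase, fell to 71.3% at its brightest probe set, where the lines overlapped (adjusted p = 0.028). That call was lost without any 1 of SThdh7/7 samples 1 and 2 or SThdh111/111 samples 1 and 2, at differences of -0.44, -0.44, -0.42 and -0.40, and under 6 other settings. Another Kif2c probe set differed by -1.57 (adjusted p = 3.2e-06). Kif14 had a single kept probe set, below the floor on all 8 arrays, and Kif15 one with means of 6.57 and 6.51 (differences of 0.04 and -0.06, with 95% intervals of -1.91 to 1.99 and -1.25 to 1.13), and values at or below the floor carry no order, so neither probe set bears on a difference between the lines.

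**Figure D3:**
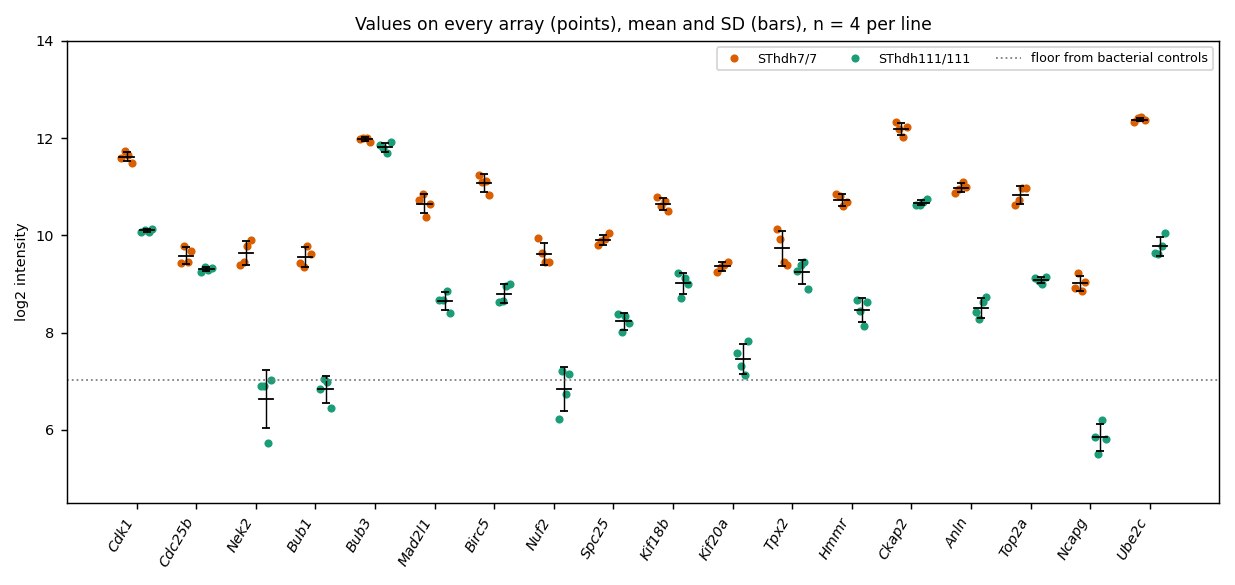
Points are log2 intensities of 18 mitotic genes in the 4 samples of each line, with mean and SD, and the dotted line is the floor at 7.02. Apart from Tpx2, the lines do not overlap; Cdc25b, Bub3 and Tpx2 have differences that did not pass the threshold.

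Spindle assembly genes were lower in 3 of 4 cases (median -1.73). Hmmr, a spindle pole protein, was at 10.85, 10.81, 10.60 and 10.68 in SThdh7/7 and at 8.68, 8.44, 8.14 and 8.62 in SThdh111/111, a fall to 20.8% (adjusted p = 1.4e-08). Of its 5 probe sets 4 were lower, and the dim remaining one, the only one left by the same rule, differed by -0.31 (adjusted p = 0.66). The mean over its probe sets differed by -1.68. Ckap2, which promotes microtubule growth, was at 12.32, 12.18, 12.03 and 12.23 in SThdh7/7 and at 10.62, 10.63, 10.68 and 10.74 in SThdh111/111, a fall to 34.8% (adjusted p = 2.7e-09). Aspm, a spindle pole protein whose loss causes microcephaly, fell to 26.3% (adjusted p = 1.6e-05) where its signal was strongest, with 2 of 4 SThdh111/111 values above the floor. The 2 Aspm probe sets above the floor on all 8 arrays gave 51.6% (adjusted p = 0.0017) and 69.4% (adjusted p = 0.10, not called).

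Tpx2, which activates Aurora A and nucleates spindle microtubules, gave different answers by probe set. At the probe set with the highest mean it was at 10.12, 9.93, 9.46 and 9.39 in SThdh7/7 and at 9.26, 9.38, 9.46 and 8.89 in SThdh111/111. The lines overlapped there, and the difference of -0.48 ± 0.17 (SE) did not pass (adjusted p = 0.066). This probe set did pass without SThdh7/7 sample 3 or 4 (-0.57 and -0.59). It also passed with a filter at a log2 of 8 (adjusted p = 0.038) and with the sample number as a block (adjusted p = 0.032). A neighbouring probe set differed by -0.49 (adjusted p = 0.057). The other 2 Tpx2 probe sets fell by 1.55 and 1.59 on the log2 scale (adjusted p = 9.5e-06 and 1.2e-05), with no overlap. The mean over all Tpx2 probe sets differed by -1.03 (adjusted p = 4.6e-06).

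All 4 genes of the midzone and the cleavage furrow were lower (median -2.18). Anln (anillin), a scaffold of the contractile ring, was at 10.87, 10.96, 11.09 and 11.0 in SThdh7/7 and at 8.42, 8.27, 8.62 and 8.73 in SThdh111/111, a fall to 18.1% (adjusted p = 1.6e-09). A second, dim Anln probe set overlapped between the lines and differed by -0.45 (adjusted p = 0.36), and the mean of both by -1.46. Ect2, the exchange factor that switches on RhoA at the cell equator, fell to 20.8%, and Prc1, which bundles the antiparallel microtubules of the midzone, to 23.4%. Racgap1, the partner of Kif23 in centralspindlin, fell to 44.4%.

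Condensin subunits, Top2a and Ki-67 fell in 7 of 7 cases (median -1.69). Top2a, the topoisomerase that untangles sister chromatids, was at 10.63, 10.72, 10.98 and 10.98 in SThdh7/7 and at 9.12, 9.07, 9.0 and 9.14 in SThdh111/111, a fall to 29.8% (adjusted p = 1.9e-08). A dim second Top2a probe set differed by -0.19 (adjusted p = 0.78), and the mean of both by -0.97. Ncapg, a subunit of condensin I, was at 8.91, 9.22, 8.86 and 9.05 in SThdh7/7 and at 5.86, 5.51, 6.21 and 5.82 in SThdh111/111. The latter are all below the floor, so Ncapg was at least 3.97-fold lower (adjusted p = 4.4e-07). The other condensin I subunit genes Ncaph, Ncapd2, Smc2 and Smc4 fell to 31.0%, 33.0%, 34.4% and 45.0%, and Mki67, which encodes the proliferation marker Ki-67, to 31.0% (adjusted p = 1.1e-05).

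Genes of anaphase onset were lower in 4 of 4 cases (median -1.52). Ube2c, which loads ubiquitin for the anaphase-promoting complex, was at 12.33, 12.41, 12.43 and 12.37 in SThdh7/7 and at 9.63, 9.62, 9.77 and 10.05 in SThdh111/111. It was bright in both lines and fell by 2.62 ± 0.09 on the log2 scale (SE), to 16.3%, with the lowest adjusted p of the 59 genes (1.3e-10). Cdc20, the coactivator of the complex, fell to 28.0%, Pttg1 (securin), the inhibitor of separase, to 43.3% and Espl1 (separase), which cuts cohesin, to 45.8%.

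Whether subunits of the same complex fell by unequal amounts was compared pair by pair. In the NDC80 complex, condensin I, the passenger complex and centralspindlin, chosen after the values were seen, the log2 ratio of 2 subunits was set against the lines in 23 pairs. In 11 pairs the ratios of the 2 lines did not overlap, each with an exact two-sided permutation p of 0.029, the smallest that 4 against 4 samples can give. After adjustment over the 23 pairs the smallest p was 0.061, so none passed. At least 14 pairs at 0.029 would have been needed for any to pass. Of the 11 pairs, 6 hold Ncapg or Nuf2, whose SThdh111/111 values lie wholly or in part below the floor. The ratio of Birc5 to Incenp differed by -0.92 (p = 0.029, exact permutation; adjusted p = 0.061). The ratio of Ndc80 to Spc25 differed by 0.02 (exact permutation p = 0.914).

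Over all 128 kept probe sets, 95 were lower and 0 higher, against 12.6% and 9.87% of all kept probe sets. Of the 36 genes with several kept probe sets, 35 had 1 or more that was lower, and in 14 all were. No gene had probe sets called in opposite directions. With every probe set counted, 55 of the 59 genes had 1 or more that was lower, and Bub3, Cdc25b, Kif14 and Kif15 had 0. More probe sets give a gene more chances of a call, and these counts by gene were not made over all named genes. Of the 33 probe sets not called, 26 had a brighter mean under 8 on the log2 scale.

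**Figure D4:**
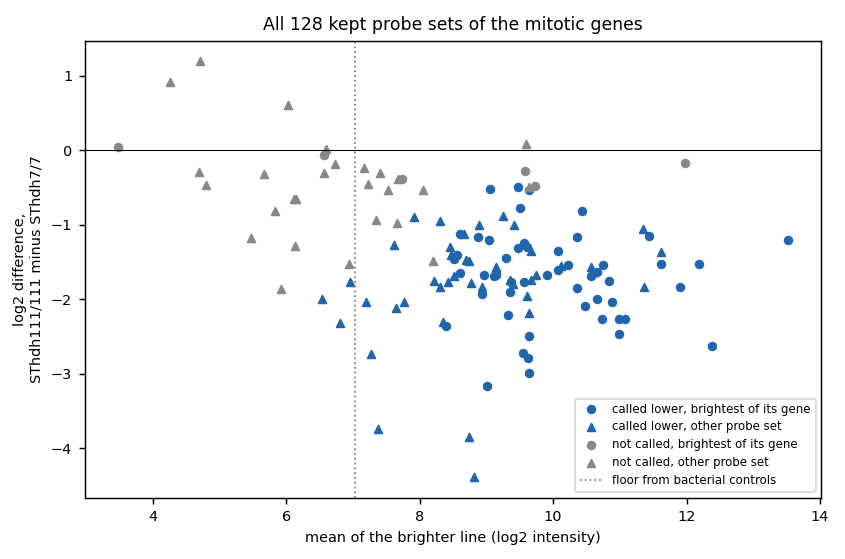
Each point is 1 of 128 kept probe sets of the mitotic genes, with the mean of its brighter line (log2 intensity) on the x axis and its log2 difference between the lines on the y axis. The 95 called ones are all lower, and the probe sets not called are mostly dim.

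Other genes of the same processes, listed apart from the 60, were lower to varying extents. Of 57 further mitotic genes 47 were lower and 1 higher (median -1.10), and 41 and 3 with centred arrays. Cep55, which recruits the machinery of final abscission, had the lowest adjusted p and differed by -2.76 ± 0.13 (SE; adjusted p = 2.1e-09), and Mad1l1, the kinetochore anchor of MAD2, rose by 0.87 ± 0.28 (SE; adjusted p = 0.040). The Mad1l1 call was lost with values set to the floor (0.87, adjusted p = 0.17) and without SThdh7/7 samples 1 and 2 (0.47, adjusted p = 0.17). Among genes of condensin II, which shares Smc2 and Smc4 with condensin I and was singled out after its values were seen, Ncapg2 and Ncapd3 fell by 1.90 and 0.77 on the log2 scale, while Ncaph2 differed by -0.05 ± 0.09 (SE; adjusted p = 0.77). Of 39 DNA replication genes, which act in S phase, 33 were lower and 0 higher (median -1.11). Rrm2, a subunit of the enzyme that makes deoxyribonucleotides, had the lowest adjusted p among them and differed by -1.86 ± 0.06 (SE; adjusted p = 1.2e-10).

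The anaphase-promoting complex and cohesin are machines whose core subunits many cells keep through the whole cycle. Of 14 genes of the anaphase-promoting complex and its regulators 4 were lower and 3 higher (median 0.13), beside 15.9% and 13.1% of all named genes, and 1 lower and 4 higher with centred arrays. Fbxo5 (EMI1), an inhibitor of the complex, differed by -1.61 (adjusted p = 5e-04), and the core subunit gene Cdc16 rose by 0.46 ± 0.08 (SE; adjusted p = 7.2e-04). Beside Ube2c and Cdc20, which work with the complex and differed by -2.62 and -1.84, its core subunits ran from -0.32 (Anapc5) to 0.46 (Cdc16). Of 11 genes of cohesin and its loaders and releasers 3 were lower (27.3%) and 0 higher (median -0.04), and 1 lower and 2 higher with centred arrays. Wapl, which releases cohesin, differed by -0.68 (adjusted p = 4.2e-04).

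Regulators of cell cycle transcription were lower in 10 of 21 cases and higher in 1 (median -0.38), in 7 and 1 with centred arrays, and in 11 and 0 after quantile normalization. Mybl1, a relative of B-MYB, differed by -1.44 (adjusted p = 1.7e-05). Mybl2, which encodes B-MYB itself and was named after its value was seen, differed by -0.42 (adjusted p = 0.23). The gene that rose was Cdkn1a (p21), a CDK inhibitor that acts upstream of DREAM, by 0.42 ± 0.07 (SE; adjusted p = 4.5e-04), from 13.70 to 13.95 in SThdh7/7 to 14.10 to 14.29 in SThdh111/111. That call was lost after quantile normalization (0.12, adjusted p = 0.36). Lists were not tested against each other.

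**Figure D5:**
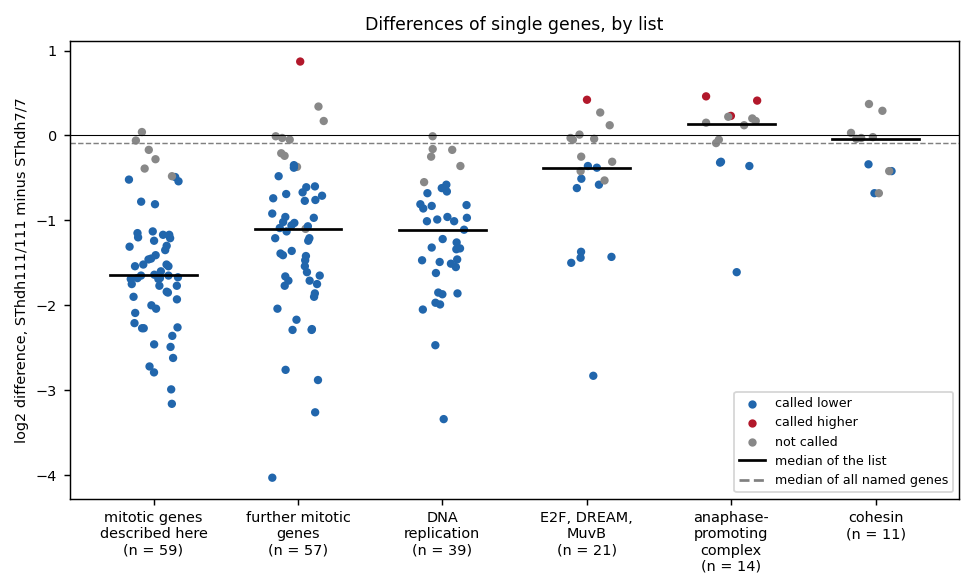
Points are log2 differences (SThdh111/111 minus SThdh7/7) of single genes in 6 lists, with the list's median as a bar. The medians are -1.64 for the mitotic genes described here, -1.10 for further mitotic genes, -1.11 for DNA replication, -0.38 for regulators, 0.13 for the anaphase-promoting complex and -0.04 for cohesin.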

How the data were processed

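The deposited table gives 1 linear intensity per probe set and array. Per the submitters' processing notes GCRMA was used, but the deposited intensity values have the same trimmed mean (500.0) on each array, so the tool behind them is not settled. Here log2 was taken and 64 control probe sets were dropped. Names come from the platform annotation, brought up to date by Entrez number with RefSeq's GRCm38.p6 table: 34945 had 1 gene, 932 several and 9160 none. A gene stands for its kept probe set of the highest mean.

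The 8 arrays entered a limma 3.58.1 model (lmFit, then eBayes with trend; R 4.3.3). Its two-sided p-values were adjusted by Benjamini-Hochberg across 41409 probe sets; the fit was tested on simulated data. Percentages of the SThdh7/7 level are 2 to the power of the log2 difference. Genes given by array were, in each role, those with the lowest adjusted p and the largest difference, and genes of a mean of at least 8 that were not called. Members, lists and rules were chosen with earlier results of these data known. Alternatives were other filters, scalings, variance models and probe set rules, the sample number as a block, a floor, and samples left out. Figures were drawn with matplotlib 3.10.9.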

Additional observations from a re-analysis of the deposited data

Results flagged for a closer look

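In 6 of 118 groups of 4 samples (59 genes in each line), 1 sample lay far from the other 3 by Dixon's test at 95%; chance gives about 1 in 20 such groups. Nek2 was at 5.74 (log2 intensity) in SThdh111/111 sample 3, against 6.90 to 7.02 in the other 3, all at or below the floor. Racgap1 was at 8.95 in SThdh111/111 sample 1, against 9.23 to 9.28. In SThdh7/7, Cenpe was at 9.49 in sample 1, against 9.20 to 9.23, and Ndc80 at 8.31 in sample 3, against 8.68 to 8.73. In sample 4, Mki67 was at 9.24, against 9.07 to 9.08, and Ncaph at 10.47, where the other 3 measured 10.59. All 6 genes were lower in SThdh111/111 with no overlap between the lines.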

How the results depend on the processing

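Of the 59 mitotic genes, 50 to 56 were lower and 0 higher under the alternatives that kept at least 56 of them, against 8.93% to 27.8% of all named genes called lower. After dropping probe sets with the suffixes x, s and a in their names, 39 of 47 were lower, against 14.3% of all named genes. That setting called 6132 probe sets and 53 mitotic ones, and its median over the genes was -1.52; it put dimmer probe sets in place of the brightest for Spc25, Hmmr, Top2a and Pttg1, whose calls were lost, and for Bub3, which then differed by 0.09. With the mean over each gene's probe sets the median was -1.51 and Bub3 differed by 0.03, and with centred arrays the median was -1.50. A filter at a log2 of 8 left 56 genes, all called lower, against 27.8% of all named genes it kept. But that filter can keep genes for being bright in 1 line. With 1 sample left out, 52 to 54 genes were lower, against 14.2% to 14.9% of all named genes. The medians of the mitotic genes were then -1.66 to -1.54, and 8115 to 8754 probe sets were called.

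The sample numbers are shared by the lines. Same-numbered samples correlated in their deviations at -0.014 to 0.009, which shows no pairing but cannot exclude a shared culture or day. With the replicate block 53 genes were lower, against 15.0% of all named genes. In that fit Kif2c lost its call and Tpx2 gained one (-0.48, adjusted p = 0.032). Values at or below the floor in 1 or more SThdh111/111 samples limit 14 genes: Kif14, Kif15, Nek2, Ncapg, Ttk, Bub1, Nuf2, Ndc80, Cenph, Aspm, Bub1b, Cenpf, Kif11 and Kif23.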

Other observations

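Both promoter motifs also occur near the start of other genes on the arrays. Of 359 such genes outside the 60 with a CCAAT box and a CHR element there, 91 were lower (25.3%) and 41 higher (11.4%). Of 9025 with neither, 15.0% were lower and 13.2% higher. Of 3362 with a CCAAT box alone 17.7% were lower and 13.8% higher, and of 959 with a CHR element alone 13.2% and 11.6%. Leaving out the genes of the other lists given above, 75 of 338 genes with both were lower (22.2%). These shares were not tested.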
